A study of Mus musculus with 6 samples.

Results

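Glutathione S-transferases are enzymes that join the tripeptide glutathione to reactive molecules, and 10 genes of this group, *Gsta4*, *Gstm1*, *Gstm2*, *Gstm4*, *Gstm5*, *Gstm7*, *Gstp1*, *Gstt1*, *Gsto1* and *Mgst1*, were followed in spinal cord endothelial cells (ECs) with and without TDP-43. They are 10 of the 56748 genes in the count table, and they were picked by gene symbol with the genotype contrast of these same libraries already known. Their genotype differences are therefore given as a description, without a p value. RNA-Seq was done on ECs sorted from the spinal cord of mice at postnatal day 16 (P16), with 3 libraries per genotype, each taken to be 1 mouse. Control mice carried the floxed *Tardbp* gene without Cre. *TDP-43iΔEC* mice carried the same floxed gene together with Cdh5(PAC)-CreERT2, a tamoxifen-dependent Cre expressed from the promoter of the EC cadherin gene *Cdh5*, so that TDP-43 is lost in ECs once Cre is active. All mice of both genotypes received tamoxifen (1 mg/mL) from P5 to P7, and because control mice had no Cre, effects of Cre and of TDP-43 loss cannot be told apart. TDP-43 is an RNA-binding protein that controls splicing and stability of many transcripts, and the comparison asks which EC transcripts differ when it is missing.

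Soluble glutathione S-transferases fall into classes by sequence. The alpha class enzyme encoded by *Gsta4* is best known for conjugating the reactive alkenals that form when membrane lipids are oxidised. The *Gstm* genes encode the mu class, *Gstp1* the pi class, *Gstt1* the theta class and *Gsto1* the omega class, whose enzymes also reduce disulfides formed with glutathione and dehydroascorbate. *Mgst1* encodes an enzyme of a separate, membrane-bound family. In the microvessels of the brain and spinal cord these enzymes act together with efflux transporters, which carry the conjugates out of the cell. Many genes of the group are known targets of the transcription factor NRF2, which responds to oxidative and electrophilic stress.

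The mu class genes are neighbors of similar sequence, which bears on how reads can be assigned to them. In GRCm39, all 5 mu class members lie on chromosome 3: *Gstm5* at chr3:107803137-107806005 on the plus strand, and *Gstm7* (chr3:107832278-107839187), *Gstm2* (chr3:107889004-107893785), *Gstm1* (chr3:107919380-107925380) and *Gstm4* (chr3:107947721-107952210) on the minus strand. *Gsta4* stands apart from them at chr9:78090056-78117763 on the plus strand. The first 60 coding bases of the 4 mu class genes with the most counts are shown, from the start codon on, to make the differences between them visible. Capitals mark bases that differ from *Gstm1*.
Gstm1: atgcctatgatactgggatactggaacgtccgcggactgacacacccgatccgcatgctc
Gstm2: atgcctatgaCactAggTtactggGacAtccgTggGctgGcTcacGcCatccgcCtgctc
Gstm7: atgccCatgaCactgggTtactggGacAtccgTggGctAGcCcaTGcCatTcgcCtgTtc
Gstm5: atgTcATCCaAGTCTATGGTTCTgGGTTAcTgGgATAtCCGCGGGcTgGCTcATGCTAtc
In this stretch *Gstm2* differed from *Gstm1* at 12 positions and *Gstm7* at 16. The *Gstm5* coding sequence is longer (672 against 654 bases), and 45 positions differed when the stretches were set base by base from the start codon. Over the whole aligned coding sequence, identity to *Gstm1* was 85.9% for *Gstm2*, 82.6% for *Gstm7*, 80.1% for *Gstm4* and 69.6% for *Gstm5*.

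Reads were 51 bases long, and few windows of that length were common to the mu class members. Of the 1330 windows of 51 bases in the *Gstm1* transcript, 10 also occurred in a *Gstm2* transcript. Windows were taken from the canonical transcript of each gene, and those of *Gsta4*, *Gstm7*, *Gstm4*, *Gstt1* and *Mgst1* shared none with another gene. Exons found only in other transcripts of a gene were not covered, although they add to its counts. The canonical transcript has 2109 bases for *Gsta4* and 1431 for *Gstm7*, against 2743 and 4190 over all exons. *Gstm1* shared more of its windows with the pseudogene *Gstm2-ps1* (15.8%) and with *Gstm3* (9.10%), and those genes were counted at no more than 1.74 and 0.0386 CPM in any mouse. CPM here are counts-per-million values after library totals were scaled by the trimmed mean of M values (TMM), which corrects for differences in library composition. *Gstm2* shared 31.2% of its windows with the pseudogene *Gm6665*, which was counted at no more than 0.275 CPM. These low counts come after reads were assigned to genes, so they cannot show how shared reads were divided. *Gstm5* shared 14.3% with *4933431E20Rik*, a long noncoding RNA gene on the opposite strand, which had 33.1 ± 13.4 CPM in control and 52.3 ± 24.0 CPM in *TDP-43iΔEC* mice (SD, n = 3 each). Without strand information, reads of that overlap cannot be told apart, and *Gstm5* values carry this uncertainty. The same holds for *Gsto1*, which shared 12.45% of its windows with *Gm30021* and 5.23% with *Gm59209*. These are also long noncoding RNA genes on the opposite strand, and their levels are not given here.

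The libraries held 44041329 to 47270654 counts in control mice and 25704871 to 45010088 counts in *TDP-43iΔEC* mice, so that 3 counts corresponded to 0.0635 to 0.117 CPM before TMM scaling. The deleted gene *Tardbp* had 55.3, 61.9 and 58.5 CPM in control mice and 26.6, 16.2 and 11.8 CPM in *TDP-43iΔEC* mice, with no overlap between the genotypes. The difference (log2 fold change -1.62, SE 0.41) did not pass the threshold (limma-voom with Benjamini-Hochberg adjustment over 13107 genes, adjusted p = 0.287). The 8 EC markers examined summed to 12940 to 18290 CPM in control and 12640 to 15100 CPM in *TDP-43iΔEC* mice, far above markers of other neural and vascular cells. Erythroid genes were the exception in amount, as given beside the members below.

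*Gsta4* was the member with the largest difference among those with more than 100 CPM. It had 1288, 1368 and 1378 CPM in control mice 1 to 3, and 427.5, 410.0 and 416.9 CPM in *TDP-43iΔEC* mice 1 to 3. The groups were far apart, and the mice within each genotype lay close together. The mean was 1345 ± 49.6 CPM in control and 418 ± 8.83 CPM in *TDP-43iΔEC* mice (SD, n = 3 each), so that 31.1% of the control level remained (log2 fold change -1.68, SE 0.12). In bulk RNA of sorted cells, fewer cells that express a gene and less RNA per cell cannot be told apart.

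Among the mu class members with more than 100 CPM, *Gstm7* differed most. Its level was 505, 429 and 549 CPM in control mice and 198.7, 162.9 and 170.4 CPM in *TDP-43iΔEC* mice. Every *TDP-43iΔEC* mouse was below every control mouse, and the mean of 177 ± 18.8 CPM was 35.9% of the control mean of 494 ± 60.7 CPM (log2 fold change -1.46, SE 0.18). *Gstm1*, the mu class gene with the most counts, differed less. It had 1322, 1349 and 1398 CPM in control mice and 809, 603.2 and 872.3 CPM in *TDP-43iΔEC* mice. The genotypes did not overlap, although *TDP-43iΔEC* mice varied more (SD 141) than control mice (SD 38.4). The mean of *TDP-43iΔEC* mice was 56.1% of that of control mice (log2 fold change -0.85, SE 0.14).

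*Gstm5* had 320.3, 357.1 and 415.1 CPM in control mice and 250.9, 144.3 and 210.3 CPM in *TDP-43iΔEC* mice. This gene too was lower in each *TDP-43iΔEC* mouse than in any control mouse, at 55.4% of the control mean (log2 fold change -0.85, SE 0.23). *TDP-43iΔEC* mouse 2 had the lowest level of *Gstm1*, *Gstm5*, *Gstm7* and *Gsta4* within its group. Its *Gsta4* level (410 CPM) was nevertheless close to those of *TDP-43iΔEC* mice 1 and 3 (427.5 and 416.9 CPM).

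**Figure D1:**
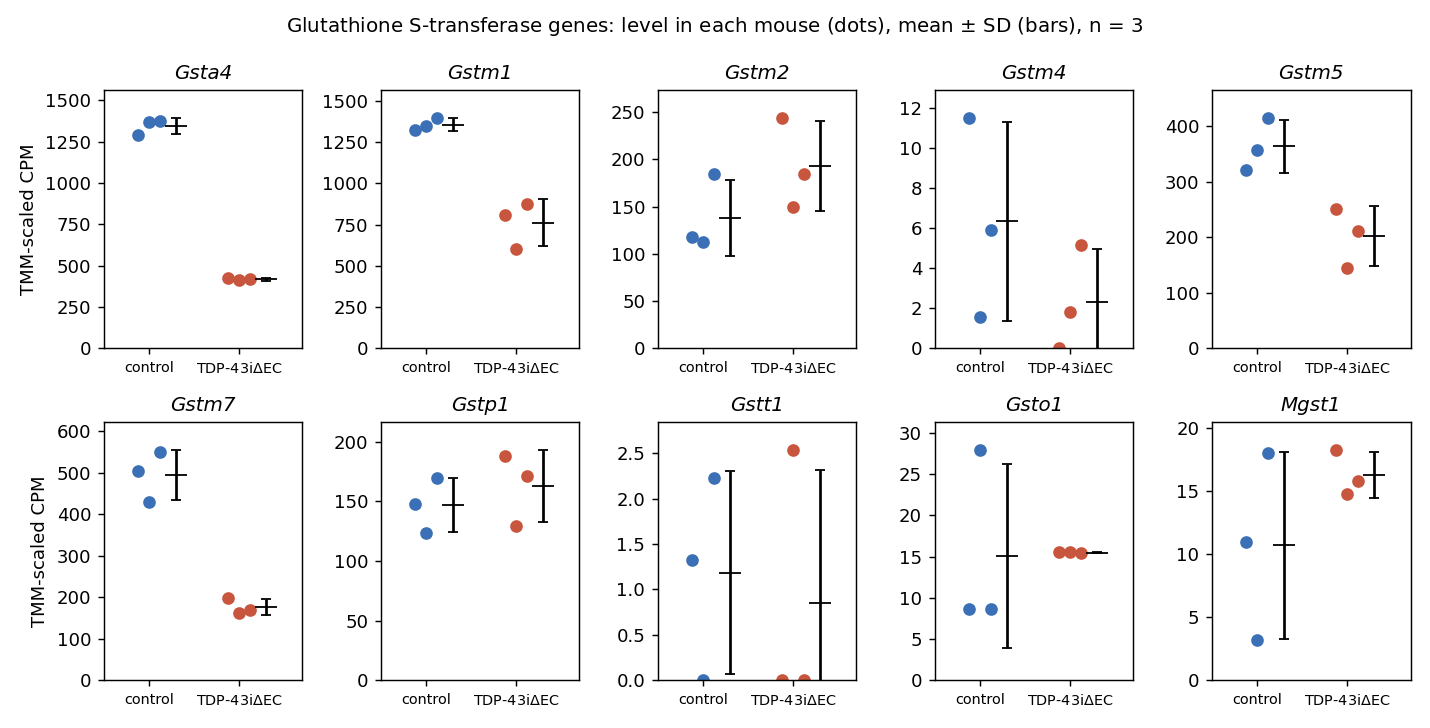
Level of each of the 10 genes in each mouse, in TMM-scaled CPM on axes that start at 0. Dots are mice (blue, control; red, TDP-43iΔEC), and bars give the mean ± SD of 3 mice (cut at 0 where the SD exceeds the mean). Gsta4, Gstm1, Gstm5 and Gstm7 are lower in every TDP-43iΔEC mouse than in any control mouse, and the other 6 genes overlap.

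*Gstm2* did not share this difference. It had 117.6, 112.3 and 184.1 CPM in control mice and 244.0, 149.9 and 184.3 CPM in *TDP-43iΔEC* mice. The ranges overlapped, with the higher mean in *TDP-43iΔEC* mice (193 ± 47.6 against 138 ± 40.0 CPM, log2 fold change 0.52, SE 0.27). Because reads of similar genes can be divided wrongly between them, the 7 *Gstm* genes were also summed. The sum was 2281, 2249 and 2558 CPM in control mice and 1510, 1064 and 1452 CPM in *TDP-43iΔEC* mice. Thus the sum too was lower in each *TDP-43iΔEC* mouse, at 0.568 times the control mean, a value that does not depend on the split among these genes.

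The composition of the *Gstm* counts differed as well. *Gstm2* made up 5.15%, 4.99% and 7.20% of them in control mice and 16.2%, 14.1% and 12.7% in *TDP-43iΔEC* mice, without overlap. The share of *Gstm7* went the other way, from 20.9 ± 1.61% to 13.4 ± 1.80% (SD, n = 3 each). Shares of *Gstm1* (57.5 ± 2.69% and 56.8 ± 3.27%) and *Gstm5* (15.4 ± 1.18% and 14.9 ± 1.57%) differed by less than the spread between mice. *Gstm1* and *Gstm5* were thus lower in about the same proportion as the sum, and *Gstm7* by more. Since *Gstm1* supplied most of the sum, its likeness to the sum is partly built in. The share of *Gstm2* likewise rises where the other genes are lower, and its own level overlapped between genotypes.

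**Figure D2:**
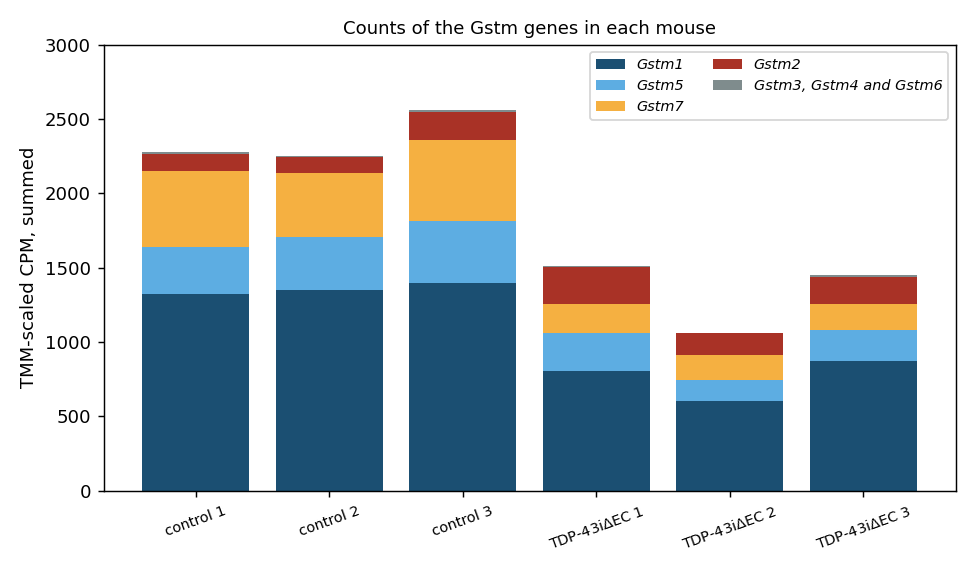
Summed TMM-scaled CPM of the Gstm genes in each of the 6 mice, with 1 bar per mouse and a color per gene. The bars reach 2249 to 2558 in control mice and 1064 to 1510 in TDP-43iΔEC mice, and the Gstm2 segment takes a larger share in the latter.

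*Gstp1*, the pi class gene, was present at intermediate levels that did not separate the genotypes. It had 147.7, 123.7 and 169.2 CPM in control mice and 187.7, 129.0 and 171.6 CPM in *TDP-43iΔEC* mice (log2 fold change 0.16, SE 0.23). Its transcript shares 56.1% of its windows with the neighboring copy *Gstp2*, which is named for this reason. *Gstp2* was counted at 1.48 ± 1.31 CPM in control and 6.38 ± 2.69 CPM in *TDP-43iΔEC* mice, and the sum of both genes also overlapped between genotypes (148 ± 23.6 and 169 ± 27.9 CPM).

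The remaining 4 members were near the lower end of what these libraries measure well. *Gsto1* had 8.67, 28.0 and 8.60 CPM in control mice and 15.5 CPM in each *TDP-43iΔEC* mouse. *Mgst1* had 10.9, 3.19 and 18.02 CPM in control mice and 18.3, 14.8 and 15.8 CPM in *TDP-43iΔEC* mice. Both genes thus varied more among control mice than between genotypes, with log2 fold changes of 0.30 (SE 0.61) and 0.92 (SE 0.70). *Gstm4* had 11.5, 1.57 and 5.89 CPM in control mice and 0, 1.80 and 5.17 CPM in *TDP-43iΔEC* mice. *Gstt1* was counted in 2 of 3 control mice (1.33 and 2.22 CPM) and in 1 of 3 *TDP-43iΔEC* mice (2.54 CPM). The spread between mice was wide for *Gstm4* and *Gstt1*, whose fitted log2 fold changes of -3.65 and -2.14 had standard errors of 2.30 and 3.14. *TDP-43iΔEC* mouse 1, the deepest library of its genotype, had 0 counts of both genes. Control mouse 2, which had the lowest *Gstm4* level of its group and 0 counts of *Gstt1*, had counts in 12972 genes, against 14103 to 16557 in the other mice.

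Counts rise with transcript length, so levels of different genes were compared per kilobase (kb) of the canonical transcript. In control mice, *Gstm1* was highest at 983 ± 27.9 CPM per kb and *Gsta4* second at 638 ± 23.4, each clear of all other members. *Gstm5* (385 ± 50.6) and *Gstm7* (345 ± 42.4) followed with overlapping ranges, as did *Gstp1* (163 ± 25.2) and *Gstm2* (127 ± 37.0). *Mgst1* (8.98), *Gsto1* (7.92), *Gstm4* (3.70) and *Gstt1* (0.69) formed a low tail in which neighbors overlapped. Control ECs therefore carried mainly mu and alpha class transcripts.

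In *TDP-43iΔEC* mice *Gstm1* was still the highest, at 552 ± 102 CPM per kb. *Gsta4* no longer stood apart, since its 198 ± 4.18 CPM per kb lay within the ranges of *Gstm5* (214 ± 56.9), *Gstp1* (180 ± 33.5) and *Gstm2* (178 ± 44.0). *Gstm7* moved from the fourth to the sixth place at 124 ± 13.2. Taking the length of all exons together instead of the canonical transcript kept *Gstm1*, *Gsta4* and *Gstm5* as the leading genes of control mice (540, 490 and 284 CPM per kb). The count of *Gsta4* relative to *Gstm1* was 0.991 ± 0.0206 in control mice and 0.562 ± 0.105 in *TDP-43iΔEC* mice, and *Gsta4* supplied 34.7 ± 1.45% and 21.7 ± 2.92% of all counts of the 10 genes. Those 10 genes together had 3878 ± 218 CPM in control and 1949 ± 277 CPM in *TDP-43iΔEC* mice.

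**Figure D3:**
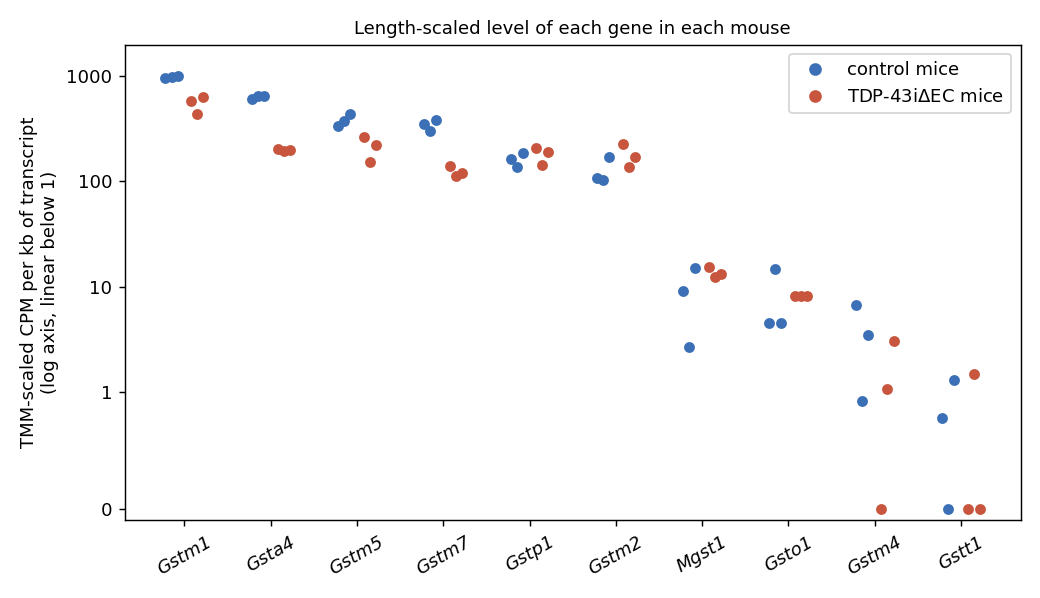
Length-scaled level of each gene in each mouse, in TMM-scaled CPM per kb of the canonical transcript, on a log axis that is linear below 1. Genes stand in the order of their control mean, from Gstm1 at 983 to Gstt1 at 0.69, and the red dots of Gsta4 lie beside those of Gstm5, Gstp1 and Gstm2.

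Of the 10 members, 2 passed the threshold of the fit over all genes, *Gsta4* and *Gstm7*, both lower, against 0.107% of all 13107 tested genes that passed as lower. No member passed as higher, against 0.0305% of tested genes. In 4 members every *TDP-43iΔEC* mouse was below every control mouse, and in none was every *TDP-43iΔEC* mouse above, whereas 7.93% and 7.4% of all tested genes were so. Since the members were chosen with this contrast in view, nothing is read from these counts. The median log2 fold change was -0.85 over the 10 members and -0.02 over all tested genes. Neither *Gsta4* nor *Gstm7* passed in edgeR's quasi-likelihood test (0 of 13107 genes passed there, with 848 at an unadjusted p under 0.05) or without *TDP-43iΔEC* mouse 1 (0 of 14210 genes, 960 at an unadjusted p under 0.05). When the fit was repeated without 1 of the 6 mice, log2 fold changes ranged from -1.72 to -1.67 for *Gsta4* and from -1.57 to -1.38 for *Gstm7*.

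Some markers of other cells were also lower in *TDP-43iΔEC* mice, with those of erythroid cells largest in amount. The 5 erythroid genes summed to 6935 to 10580 CPM in control mice and 2034 to 2884 CPM in *TDP-43iΔEC* mice, without overlap, and 4 of the 5 passed the threshold as lower. The 6 astrocyte markers summed to 238 to 260.5 CPM in control mice and 128 to 177 CPM in *TDP-43iΔEC* mice. Most of this sum was *Gja1* (229.9 ± 18.5 and 147.6 ± 38.9 CPM), a gap junction gene that ECs also express, while the astrocyte water channel gene *Aqp4* had at most 2.55 CPM in control mice and 0 in all *TDP-43iΔEC* mice. Neuronal markers were at 3.19 to 10.3 and 0.864 to 2.99 CPM. Mural, fibroblast, oligodendrocyte and microglial marker sums overlapped between the genotypes, at up to 928, 44.3, 609 and 8.37 CPM. The sorting antibodies listed for the study were against CD31, an EC surface protein, and against CD45 and TER-119, which mark leukocytes and erythroid cells and so allow their removal. The part of these cells in the lower *Gsta4* and *Gstm* values was not tested.

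The genes whose pattern over the 6 mice was most like that of *Gsta4* were sought among 4330 other genes with a mean log2 CPM of at least 5, by the root mean square difference of centered log2 CPM. *Gstm7* was the nearest of all (0.168), followed by *Dpp4* (0.222), which encodes a membrane peptidase, and by the hemoglobin genes *Hba-a1* (0.224), *Hba-a2* (0.243) and *Hbb-bt* (0.244). The alpha-globin genes *Hba-a1* and *Hba-a2* are near-identical copies whose reads may be split between them, and the hemoglobin genes are expressed in the same cells, so they are not separate observations. *Gstm1* ranked 87 and *Gstm5* 106, while *Gstp1* and *Gstm2* ranked 2482 and 3568. Centering over all 6 libraries kept the genotype difference. The ranks therefore depend on how near a gene's log2 fold change is to that of *Gsta4*, and they are a description only.

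Promoter sequences were read to see whether the members that were lower share short motifs. For each gene the 250 bases before the start of the canonical transcript were searched on both strands. As a background, the same was done for the 11334 promoters of tested protein-coding genes. The antioxidant response element TGACNNNGC, to which NRF2 binds, occurred in 10.7% of these promoters and, among the members, only in *Gstm5*, 9 bases before the start. The TCF/LEF motif, through which β-catenin acts, was searched only in the form CTTTGAT. This form occurred in 2.35% of promoters and in no member, and other forms of the motif were not searched. The TATAAA box occurred in 7.06% of promoters and, among members, only in *Gstm7*, 177 bases before the start. The last 100 bases before the start are shown for the 3 mu class members that were lower and for *Gstm2*, which was not. Capitals mark the antioxidant response element.
Gstm1, chr3:107925381-107925480, minus strand: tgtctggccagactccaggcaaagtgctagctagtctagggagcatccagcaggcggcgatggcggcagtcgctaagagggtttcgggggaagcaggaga
Gstm5, chr3:107803037-107803136, plus strand: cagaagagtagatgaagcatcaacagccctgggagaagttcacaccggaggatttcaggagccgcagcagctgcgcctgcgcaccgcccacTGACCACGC
Gstm7, chr3:107839188-107839287, minus strand: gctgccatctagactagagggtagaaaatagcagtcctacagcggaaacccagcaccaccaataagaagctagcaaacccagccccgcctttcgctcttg
Gstm2, chr3:107893786-107893885, minus strand: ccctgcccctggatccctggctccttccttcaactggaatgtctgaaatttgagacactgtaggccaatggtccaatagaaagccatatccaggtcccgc
None of the 3 motifs was common to *Gstm1*, *Gstm5* and *Gstm7*. The related motif TGANTCAGC, bound by small MAF proteins together with partners such as NRF2, was added after the *Gsta4* window had been read. It occurred in 0.86% of promoters and, among the members, in *Gsta4*, where it starts 86 bases before the canonical start, in a stretch shown with the motif in capitals. The match in *Gsta4* was thus known before the search, and nothing is read from it against the share of all promoters. Among the other genes of the group it also occurred in *Gstp2*, 37 bases before the start. *Gstp2* had 1.48 ± 1.31 CPM in control and 6.38 ± 2.69 CPM in *TDP-43iΔEC* mice (log2 fold change 2.73, SE 1.63, limma adjusted p = 0.609). Every *TDP-43iΔEC* mouse was above every control mouse, as in 7.4% of all tested genes. The *Gstp2* transcript shares 63.3% of its windows with *Gstp1*, so reads may be divided wrongly between them. The part of this motif in the levels of *Gsta4* and *Gstp2* was not tested. The canonical start of *Gsta4* lies inside the annotated gene, and 156 of its 250 window bases are in exons of other *Gsta4* transcripts, as are 216 of 250 for *Mgst1*.
Gsta4, chr9:78099133-78099161, plus strand: tactcagtaaTGAGTCAGCgaaaactttt
These matches are letters in a window, and binding was not measured.

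Of the other glutathione S-transferase genes, 19 were in the table and 10 were tested, and none of these passed the threshold (limma-voom), with 5 at an unadjusted p under 0.05, as had 1215 of all 13107 tested genes. The count was also 0 with edgeR and was 1 with DESeq2. *Gstk1*, the kappa class enzyme of mitochondria and peroxisomes, had 74.2, 84.9 and 73.2 CPM in control mice and 31.5, 41.4 and 36.2 CPM in *TDP-43iΔEC* mice. The genotypes did not overlap (log2 fold change -1.12, SE 0.28, limma adjusted p = 0.287), and *Gstk1* was the gene that passed in DESeq2 (adjusted p = 0.0380). *Gstt2*, a theta class gene, had 78.1, 92.8 and 113 CPM in control mice and 46.5, 60.5 and 45.8 CPM in *TDP-43iΔEC* mice (log2 fold change -0.90, SE 0.28, limma adjusted p = 0.393). *Ptges*, which encodes a prostaglandin E synthase of the membrane-bound family, overlapped between genotypes (log2 fold change -0.13, SE 0.33, limma adjusted p = 0.923). The median log2 fold change of the 10 tested genes was -0.32.

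**Figure D4:**
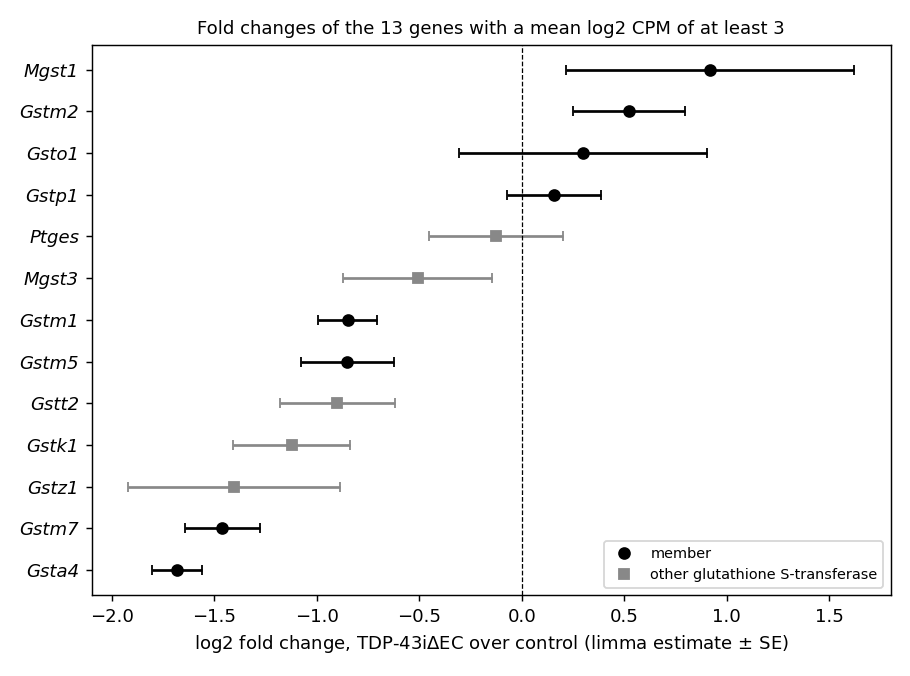
Log2 fold change of TDP-43iΔEC over control mice for the 13 glutathione S-transferase genes with a mean log2 CPM of at least 3, as the limma estimate with its standard error. Black circles are members and gray squares other genes of the group, with Gsta4 (-1.68) and Gstm7 (-1.46) at the low end and Mgst1 (0.92) at the high end.

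The genes that make and recycle glutathione did not pass the threshold in either direction (0 of 15 tested, 1 at an unadjusted p under 0.05, limma-voom, and 0 with edgeR and DESeq2). *Slc3a2*, the shared heavy chain of the cystine exchanger and other amino acid transporters, had 2045 ± 357 CPM in control and 1405 ± 207 CPM in *TDP-43iΔEC* mice (limma adjusted p = 0.360). *Cndp2* and *Lap3*, peptidases that split dipeptides released from glutathione, had log2 fold changes of -0.48 and 0.03 (limma adjusted p = 0.687 and 0.988). Glutathione peroxidase and glutaredoxin genes gave 0 of 14 (1 at an unadjusted p under 0.05, and 0 with edgeR and DESeq2). *Gpx1*, which reduces hydrogen peroxide with glutathione, had 449.6 ± 57.2 and 609.8 ± 86.7 CPM, with every *TDP-43iΔEC* mouse above the control mice (log2 fold change 0.42, SE 0.16, limma adjusted p = 0.4998). *Gpx4*, which reduces lipid hydroperoxides, and *Esd*, a hydrolase of glutathione thioesters, had limma adjusted p values of 0.710 and 0.747.

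The list of aldehyde-clearing enzymes also gave 0 of 10 (1 at an unadjusted p under 0.05, and 0 with edgeR and DESeq2). The aldehyde reductase gene *Akr1a1* had 1077 ± 60.8 and 905.5 ± 94.8 CPM, the mitochondrial aldehyde dehydrogenase gene *Aldh2* 161 ± 42.4 and 110 ± 24.8 CPM, and *Adh5*, which acts on the glutathione adduct of formaldehyde, 179 ± 41.5 and 162 ± 18.8 CPM (limma adjusted p = 0.558, 0.596 and 0.908). Among transporters that export conjugates, 0 of 5 passed (1 at an unadjusted p under 0.05, and 0 with edgeR and DESeq2). The efflux pump gene *Abcg2* had 1035 ± 194 and 1077 ± 338 CPM (limma adjusted p = 0.934). *Abcc4*, an efflux pump for organic anions, had 307.6, 369.1 and 308.7 CPM in control mice and 236.1, 137.2 and 164.1 CPM in *TDP-43iΔEC* mice, which did not overlap (log2 fold change -0.86, SE 0.23, limma adjusted p = 0.308).

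No gene of NRF2, the factors that act with it or restrain it, and its targets passed the test. Of the 11 tested, 10 had a positive log2 fold change, as had 6461 of all 13107 tested genes. In 3 of the 11 every *TDP-43iΔEC* mouse was above every control mouse, and in 0 below, against 7.4% and 7.93% of all tested genes. The threshold was passed by 0 of the 11 (2 at an unadjusted p under 0.05, limma-voom, and 0 with edgeR and DESeq2). Their median log2 fold change was 0.76 against -0.02 for all genes. Since the list mixes such factors, these signs are not a measure of NRF2 activity. *Nfe2l2*, which encodes NRF2, had 124 ± 29.8 CPM in control and 143 ± 36.6 CPM in *TDP-43iΔEC* mice (limma adjusted p = 0.862). The target *Hmox1*, which encodes a heme-degrading enzyme, had 58.4 ± 11.7 and 84.0 ± 17.6 CPM, with all *TDP-43iΔEC* mice above all control mice (log2 fold change 0.57, SE 0.29, limma adjusted p = 0.570). For *Nfe2l1*, a related factor, the log2 fold change was -0.12 (limma adjusted p = 0.925).

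**Figure D5:**
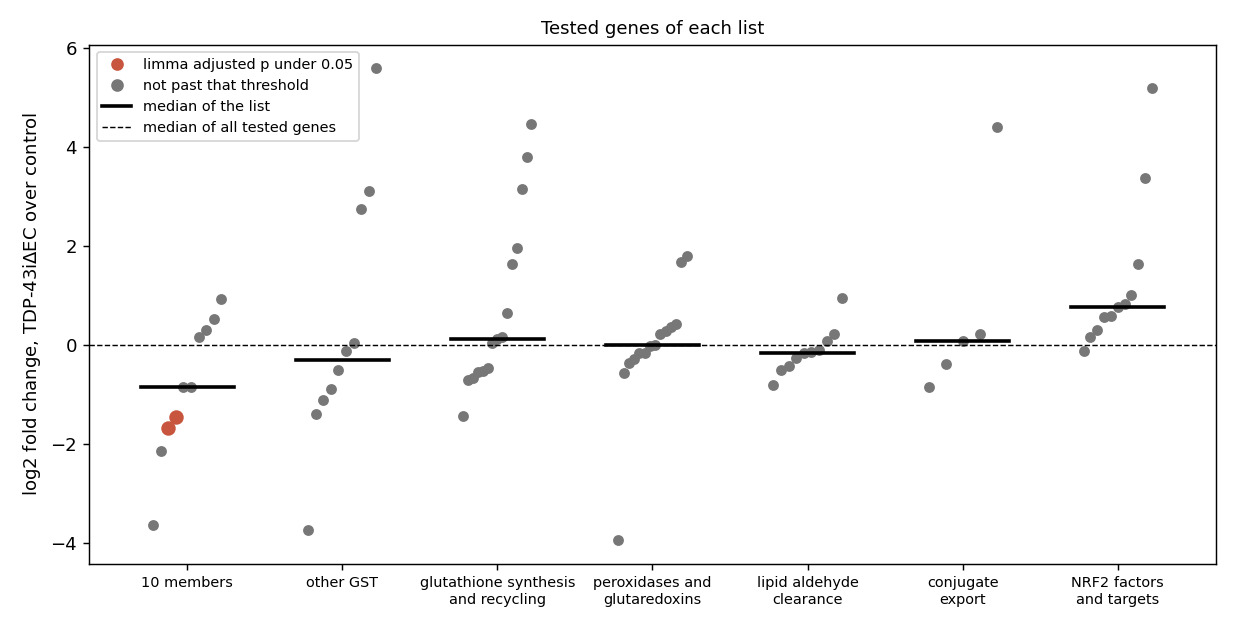
Log2 fold change of every tested gene in 7 lists, with 1 dot per gene, a bar at the median of each list and a dashed line at the median of all tested genes (-0.02). Red dots, Gsta4 and Gstm7, are the only genes of these lists past the limma threshold, and the dots beyond 2 in either direction are genes with a mean log2 CPM under 3.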

How the data were processed

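RNA-Seq counts of 3 control and 3 *TDP-43iΔEC* libraries of ECs sorted by FACS from the spinal cord were analysed. The authors prepared SMARTseq2 libraries from small, unequal RNA amounts with PCR cycles that differed between samples, mapped paired reads of 51 bases to GRCm39 with STAR 2.7.8a, and quantified GENCODE M30 genes with RSEM 1.3.0. The deposited estimated counts were whole numbers, without scaling or filtering, so rounding changed none. Molecular identifiers are not mentioned in the sources used here, and duplicates made by PCR add to the counts.

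Counts were tested with limma 3.58.1 (voom with a prior count of 0.5, empirical Bayes) after TMM scaling and filterByExpr of edgeR 4.0.16 in R 4.3.3, as the paper's methods name limma-voom. Benjamini-Hochberg adjustment covered all tested genes at a threshold of 0.05. Each library was taken to be 1 animal, since the numbered sample titles and the paper mention no pooling. Same-numbered mice did not deviate together (r = -0.0524, -0.0428 and 0.134), so no pairing was used. The members and the gene lists were chosen with earlier results of these data known. The genes named are the members, *Tardbp*, genes of the 6 lists past the threshold, the 3 highest genes of each list and the 5 genes nearest to *Gsta4*; *Gja1*, *Aqp4* and genes sharing sequence with a member were added after values were seen. A gene that meets this rule is not reported here. Gene models and sequences come from GRCm39 with GENCODE M39, which matched 98.7% of gene identifiers. The procedures were tested on simulated data. Alternatives were edgeR and DESeq2 1.42.0, sample quality weights, other scalings and filters, a replicate block, leaving out each mouse and, chosen after seeing the data, leaving out erythroid genes. Protein sequences were not used here.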

Additional observations from a re-analysis of the deposited data

How the results depend on the processing

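*Gsta4*, *Gstm1*, *Gstm5* and *Gstm7* were lower in *TDP-43iΔEC* mice under all 15 alternatives, and *Gstm2*, *Gstp1*, *Gsto1* and *Mgst1* had a positive log2 fold change under all 15. The count of genes past the threshold (18) was less firm. It was 0 with edgeR, 247 with DESeq2, 10 with scaling by library size only, 76 with no filter on low counts, 39 with at least 10 counts in every library, and 0 to 13 with a mouse left out: 3 without control mouse 1, 10 without control mouse 2, 13 without control mouse 3, 0 without *TDP-43iΔEC* mouse 1, 3 without *TDP-43iΔEC* mouse 2 and 2 without *TDP-43iΔEC* mouse 3. The replicate block gave 22 genes, and changed no other call. Members past the threshold (2) were 0 with edgeR, 1 with library size only (*Gsta4*), 3 with DESeq2 and with no filter (*Gstm1* added), and 0 to 2 with a mouse left out: 0 without *TDP-43iΔEC* mouse 1, 1 (*Gsta4*) without control mouse 1 or 3 or *TDP-43iΔEC* mouse 2 or 3. Other glutathione S-transferase genes past the threshold were 1 with DESeq2, where *Tardbp* passed too (-1.65, adjusted p = 0.0221; range 0.0221 to 0.564 over the alternatives). Scaling by library size only moved the median log2 fold change of all genes to 0.18 and that of *Gsta4* to -1.50. It turned the sign of *Ptges* (0.069), *Adh5* (0.085) and *Nfe2l1* (0.072), and *Lap3* turned with edgeR (-0.018) and quality weights (-0.029). With a mouse left out, signs turned for *Ptges* (-0.437 to 0.064), *Lap3* (-0.26 to 0.26), *Abcg2* (-0.22 to 0.27), *Nfe2l1* (-0.37 to 0.10), *Nfe2l2* (-0.038 to 0.333), *Adh5* (-0.31 to 0.039) and *Esd* (-0.03 to 0.59). The causes were not tested. *Gstm4* and *Gstt1* had 0 counts in some mice, deep libraries among them.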
